A study of Tamarix ramosissima and Tamarix chinensis with 11 samples.

Results

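Of the 117867 genes assembled from leaf RNA of *Tamarix chinensis* (TC) and *Tamarix ramosissima* (TR), 239 were expressed in well-watered leaves and had strongly raised transcript levels under water deficit (WD) in both species. They were chosen from the measured levels. The estimated count of each gene was divided by the library total and multiplied by 1000000 to give CPM, and a response L was computed per species as the log2 of mean WD CPM plus 1 over mean control (C) CPM plus 1. A gene was taken when its CPM reached 1 in at least 1 of the 5 control libraries, when L was at least 1.5 in both species, and when every WD library lay above every C library of its own species. The members were 0.762% of the 31383 genes that met the control level. Their WD levels relative to control are therefore given as a description without a test.

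The groups were *T. chinensis* WD (3 plants), *T. chinensis* C (2 plants), *T. ramosissima* WD (3 plants) and *T. ramosissima* C (3 plants), with 1 plant per library. The plants were seedlings, from New Mexico seed for *T. chinensis* and Montana seed for *T. ramosissima*, raised in a greenhouse and moved at 14 weeks of age to growth chambers at 25 °C, where water was withheld or not. WD leaves were taken at the wilting point, on day 10 in *T. chinensis* and day 17 in *T. ramosissima*, so species, seed source and day of harvest cannot be told apart. Each species was represented by the plants of 1 seed source, and a library is 1 individual seedling.

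Tamarix, or saltcedar, is a deep-rooted, salt-tolerant shrub of dry riverbanks. When a leaf loses water, the hormone abscisic acid accumulates, stomata close, and genes for dehydrins and other late embryogenesis abundant proteins, osmolyte synthesis, transporters and stress-related transcription factors are switched on, while growth and photosynthesis genes are commonly turned down. Which of these roles the members have is not known here, because no gene names accompany the identifiers of the assembly. For the same reason no pathway list was counted, and the leaf label was not checked against marker genes. In leaf RNA, fewer cells of a type and less RNA per cell cannot be told apart.

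Library totals lay between 10245008 and 15655257 fragments, so that 1 CPM stood for more than 10 fragments. The 10 most abundant genes took 4.92% to 9.04% of the counts of a library. TMM factors, which rescale library sizes for differences in composition, lay between 0.831 and 1.10, with the lowest in *T. ramosissima* C 1. Between plants of the same group the median chi-square of the counts was 2.25 to 8.76, where a library deposited a second time would give about 0.455 or less, so each library was counted as its own sample.

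The conditions of the rule removed genes in steps. L was at least 1.5 in 1145 expressed genes of *T. chinensis* and in 576 of *T. ramosissima*, and 343 genes reached this in both. Among these 343, the WD and C libraries did not overlap in 304 genes of *T. chinensis* and 271 of *T. ramosissima*, and in 239 the groups were apart in both species. The members made up 23.6% of the 1013 genes that met both conditions in *T. chinensis* and 54.1% of the 442 that met them in *T. ramosissima*. The members nearest the limit had a smaller L of 1.5018, 1.5025 and 1.5027, and the nearest genes outside had 1.4979, 1.4931 and 1.4758. At the control limit, the lowest members reached 1.017, 1.022 and 1.06 CPM in their highest control, and the nearest genes outside reached 0.993, 0.993 and 0.984 CPM.

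The members took a small share of the RNA of well-watered leaves and a several-fold larger share of that of wilted leaves. They held 5.41%, 1.96% and 5.42% of all counts in the *T. chinensis* WD plants, against 0.498% and 0.50% in the *T. chinensis* C plants. In *T. ramosissima* they held 3.33%, 1.41% and 1.82% in the WD plants, against 0.333%, 0.464% and 0.40% in the C plants. Every WD plant was above every C plant of either species, an order that the rule fixes within a species. *T. chinensis* WD 2 was far below the other plants of its group, and *T. ramosissima* WD 1 was above the others of its own. The mean share was 4.26% ± 1.99 (SD, n = 3) in *T. chinensis* WD and 0.499% ± 0.00118 (SD, n = 2) in *T. chinensis* C. It was 2.19% ± 1.01 in *T. ramosissima* WD and 0.399% ± 0.0654 in *T. ramosissima* C (SD, n = 3 each). The summed CPM of the members was 8.54-fold higher in WD in *T. chinensis*, where single WD plants gave 3.93-fold to 10.9-fold, and 5.48-fold higher in *T. ramosissima*, where they gave 3.53-fold to 8.35-fold. Without the 2 most abundant members the folds were 7.91 and 5.26. From the deposited TPM values, which divide counts by effective length, they were 8.09 and 5.82.

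**Figure D1:**
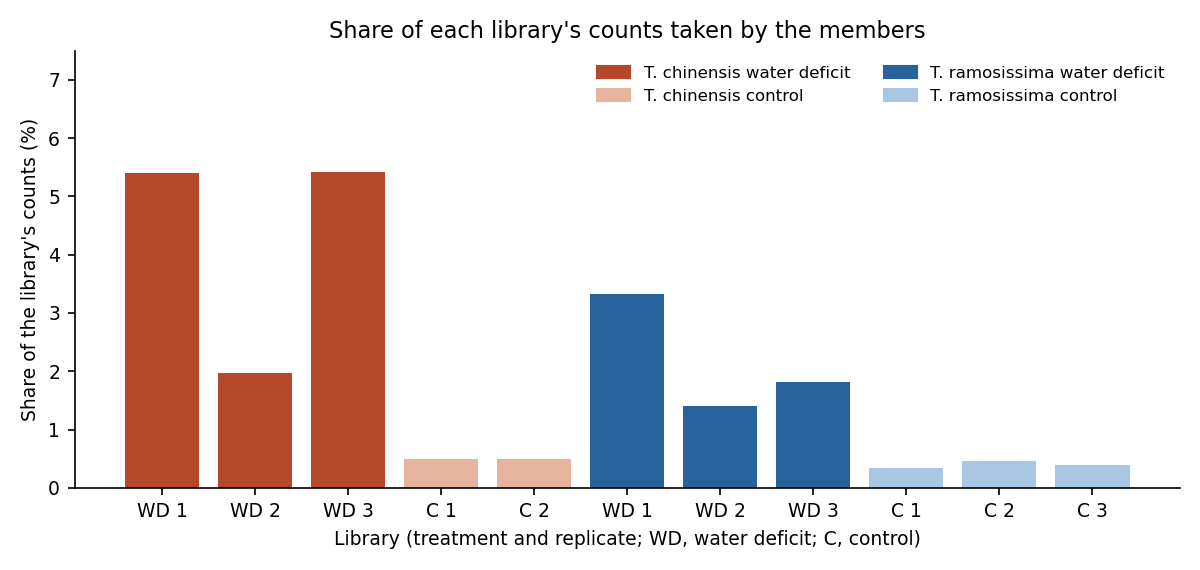
Share of each library's counts (%, vertical axis) taken by the 239 members, 1 bar per library and plant, with the replicate number below each bar. The WD plants of *T. chinensis* stood at 5.41%, 1.96% and 5.42% against about 0.5% in its controls, and those of *T. ramosissima* at 3.33%, 1.41% and 1.82% against 0.333% to 0.464%.

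The rise in share was spread over the set. The most abundant member supplied 9.81%, 5.54% and 10.8% of the summed CPM of the members in the *T. chinensis* WD plants, and 6.16%, 5.15% and 8.09% in the *T. ramosissima* WD plants. The 10 most abundant members of a library supplied between 27.4% and 37.8% of the sum over all 11 libraries. This was 37.8%, 29.7% and 37.1% in *T. chinensis* WD, against 31.2% and 29.2% in *T. chinensis* C. In *T. ramosissima* it was 28.5%, 30.2% and 36.6% in WD, against 29.4%, 27.4% and 28.6% in C. The part of each member in the rise was not computed. The median member had 96.1, 39.05 and 95.4 CPM in the *T. chinensis* WD plants, against 8.58 and 9.01 CPM in the C plants. It had 67.6, 25.8 and 32.4 CPM in the *T. ramosissima* WD plants, against 6.07, 8.48 and 7.65 CPM in the C plants. The lowest WD median of either species lay above the highest C median. Within a species the rule fixes this order, because each member had every WD library above every C library.

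**Figure D2:**
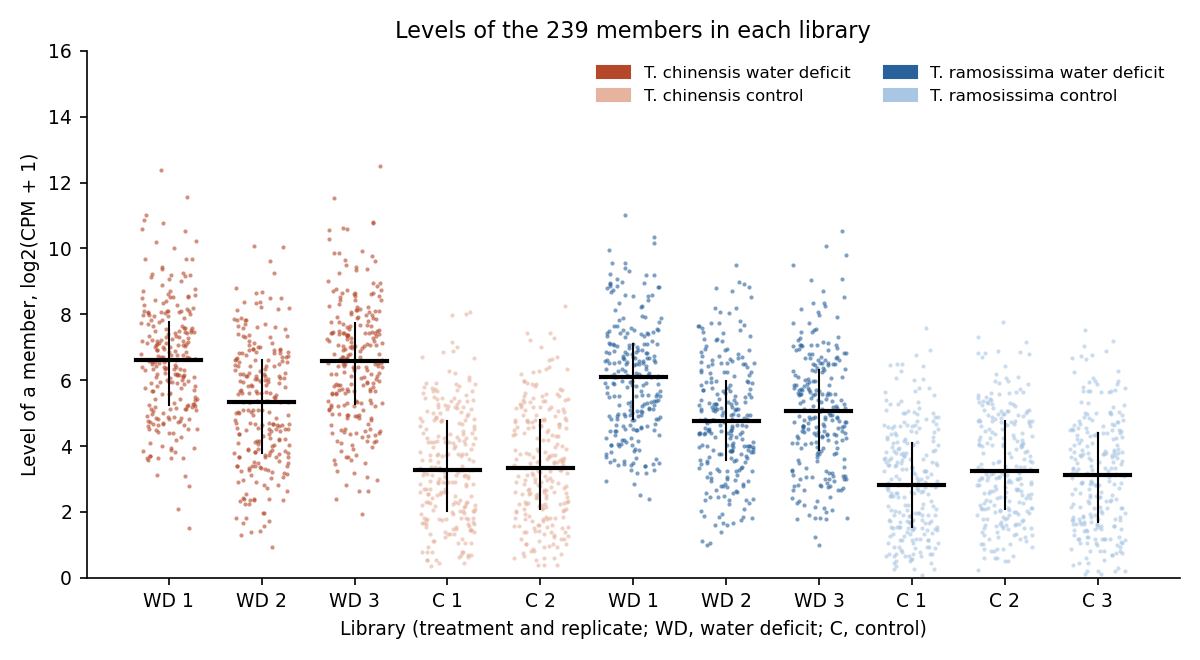
Level of each of the 239 members on the log2(CPM + 1) scale (vertical axis) in each of the 11 libraries, with 1 point per member, the median as a horizontal bar and the quartiles as a vertical line. The medians of the 6 WD libraries lie above those of the 5 C libraries, and *T. chinensis* WD 2 and *T. ramosissima* WD 2 and 3 lie lower than the other 3 WD libraries.

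All members were detected in every control. None had a count of 0 in any control library, 197 of the 239 reached a CPM of 1 in all 5 controls, and 11 did so in exactly 1. In TPM, the scale on which genes of different length can be compared, 46 members were among the 500 highest genes of *T. chinensis* WD and 1 was among those of *T. chinensis* C. The counts were 23 members in *T. ramosissima* WD and 0 in *T. ramosissima* C. The median mean TPM of a member was 80.9 in *T. chinensis* WD and 9.53 in *T. chinensis* C, and 37.0 in *T. ramosissima* WD and 7.59 in *T. ramosissima* C.

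L had a median of 2.57 in *T. chinensis* (range 1.5 to 7.33) and 2.04 in *T. ramosissima* (range 1.5 to 7.07). The medians over all expressed genes were -0.06 and -0.02. The ratio of mean WD to mean C CPM, without the added 1, had a median of 6.79 in *T. chinensis* and 4.86 in *T. ramosissima*. In *T. chinensis*, 56 members had an L under 2, 98 had 2 to under 3, 46 had 3 to under 4, and 39 had 4 or more. In *T. ramosissima* these counts were 110, 95, 23 and 11, so the upper classes were more sparsely filled. L was at least 3 in both species in 28 members and at least 4 in both in 9, and it was under 2 in both in 42.

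L was larger in *T. chinensis* in 186 members and larger in *T. ramosissima* in 53. The values of the 2 species lay within 1 of each other in 160 members. *T. chinensis* exceeded *T. ramosissima* by at least 1 in 75 members and by at least 2 in 21, and *T. ramosissima* exceeded *T. chinensis* by these margins in 4 members and in 1. Over the 239 members, the L values of the species had a Pearson r of 0.62 and a Spearman rho of 0.54. Mean control levels had an r of 0.96 and mean WD levels an r of 0.84, both on the log2(CPM + 1) scale. Each correlation is across genes chosen for high L, which are not independent replicates, and the points of a species share the same libraries.

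**Figure D3:**
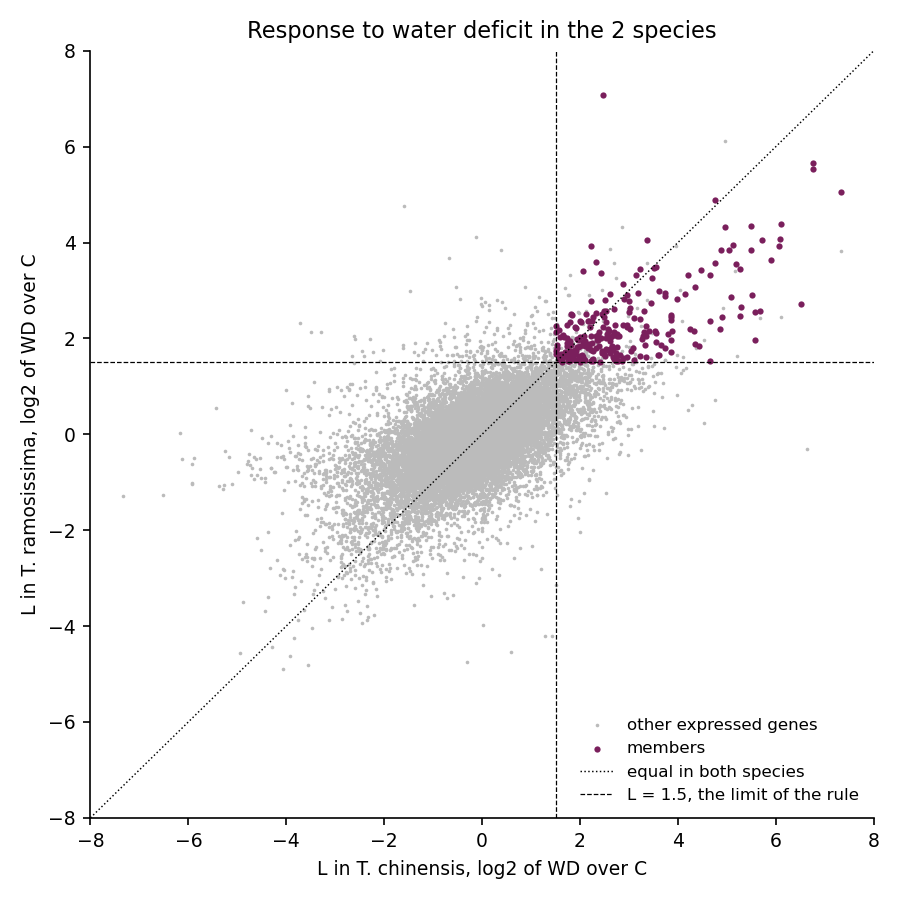
L, the log2 of WD over C on the CPM + 1 scale, in *T. chinensis* (horizontal axis) and *T. ramosissima* (vertical axis) for expressed genes, with the 239 members coloured, the limit of 1.5 dashed and equality dotted. Members fill only part of the upper right corner because 104 genes there had overlapping WD and C libraries, and 186 members lie below the line of equality.

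The distance between the groups also varied among members. The lowest WD library stood above the highest C library by a median of 2.94-fold in *T. chinensis* and 2.09-fold in *T. ramosissima*. In 98 members this gap was at least 2-fold in both species, and in 82 it was under 1.5-fold in at least 1 species. The narrow gap was in *T. chinensis* in 28 of these and in *T. ramosissima* in 58, with a few counted in both. The spread among plants of 1 group, as the SD of log2(CPM + 1), had a median over members of 0.80 in *T. chinensis* WD and 0.26 in *T. chinensis* C, and of 0.70 in *T. ramosissima* WD and 0.40 in *T. ramosissima* C. All expressed genes had medians of 0.27, 0.16, 0.33 and 0.30 in the same groups. WD plants were thus more unequal in the members than in leaf transcripts at large. Since L rises with a single high plant, part of this spread comes with the rule.

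Members with low control levels had larger folds, in part by construction, since the 1 added in L asks a larger ratio of a gene with few counts. The mean control CPM was under 5 in 85 members, 5 to under 20 in 85, 20 to under 50 in 51 and at least 50 in 18. From the lowest to the highest of these classes, the median fold was 11.8, 6.14, 5.37 and 5.6 in *T. chinensis*, while in *T. ramosissima* it was 6.17, 4.61, 4.13 and 3.6. The added 1 in L flattened this order, with median L of 2.82, 2.53, 2.39 and 2.48 in *T. chinensis*, while in *T. ramosissima* it was 2.08, 2.09, 2.02 and 1.84. The members were 0.616%, 1.11%, 0.941% and 0.397% of the expressed genes of these classes.

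TRINITY_DN34563_c1_g1 was the most abundant member under WD, taking for each gene the smaller of the mean WD CPM values of the 2 species. Its level was 5302, 73.6 and 5828 CPM in *T. chinensis* WD, against 16.4 and 50.9 CPM in *T. chinensis* C. In *T. ramosissima* it was 2052, 506 and 1475 CPM in WD, against 13.2, 45.7 and 18.3 CPM in C. All WD plants were above the controls of their species, but *T. chinensis* WD 2 was only 1.45-fold above the higher control, whereas the lowest *T. ramosissima* WD plant was 11.1-fold above the highest control. L was 6.75 in *T. chinensis* and 5.65 in *T. ramosissima*, and the ratios of mean CPM were 111 and 52.3. Its mean TPM was 3998 ± 3380 in *T. chinensis* WD (SD, n = 3) and 42.0 ± 29.5 in *T. chinensis* C (SD, n = 2). It was 1675 ± 1028 in *T. ramosissima* WD and 32.0 ± 22.0 in *T. ramosissima* C (SD, n = 3 each). By mean TPM it ranked 12 among all genes in *T. chinensis* WD and 4342 in *T. chinensis* C, and 37 in *T. ramosissima* WD and 5616 in *T. ramosissima* C.

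TRINITY_DN33002_c3_g2 had the largest smaller L after that gene, from a control level close to the limit of the rule. It had 273.5, 31.7 and 297 CPM in *T. chinensis* WD, against 0.72 and 1.02 CPM in *T. chinensis* C. It had 172, 31.6 and 23.6 CPM in *T. ramosissima* WD, against 0.21, 1.36 and 0.38 CPM in *T. ramosissima* C. The groups were far apart in both species, with the lowest WD plant 31.0-fold above the highest control in *T. chinensis* and 17.4-fold in *T. ramosissima*. L was 6.75 in *T. chinensis* and 5.54 in *T. ramosissima*, and the ratios of mean CPM, 229.96 and 117, rest on controls of few fragments. Mean TPM was 182 in *T. chinensis* WD and 1.26 in *T. chinensis* C, and 133 in *T. ramosissima* WD and 0.83 in *T. ramosissima* C.

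**Figure D4:**
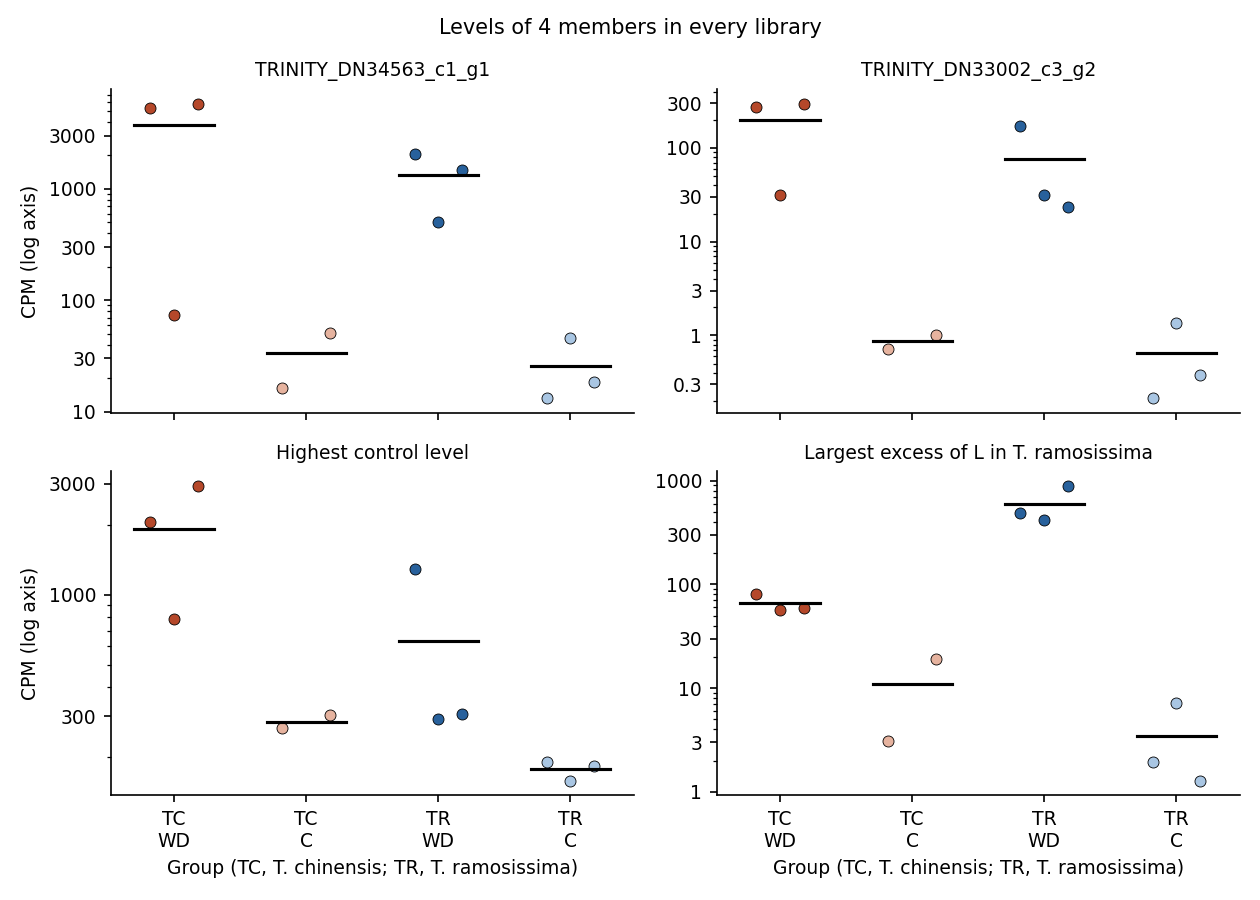
CPM of 4 members in every library on log axes, with 1 point per plant in replicate order and the group mean as a bar. *T. chinensis* WD 2 is the lowest WD plant of its group in all 4 panels, *T. ramosissima* WD 1 is the highest of its group in 3 of them, and in the panel at the lower right *T. ramosissima* WD stands above *T. chinensis* WD.

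Other members were ranked by the average of the mean WD CPM of the 2 species. Those in places 2 to 4 rose by smaller factors from higher control levels. The member in place 2 had the highest mean control CPM of all members. Its level was 2061, 787 and 2935 CPM in *T. chinensis* WD, against 266 and 303 CPM in *T. chinensis* C, and 1289, 293 and 306 CPM in *T. ramosissima* WD, against 191, 158 and 182 CPM in *T. ramosissima* C. In *T. ramosissima* 1 plant, WD 1, accounted for most of its rise. The members in places 3 and 4 were more even over plants. The member in place 3 had 1848, 1087 and 1773 CPM in *T. chinensis* WD, against 250 and 150 CPM in *T. chinensis* C, and 747, 452 and 416 CPM in *T. ramosissima* WD, against 108.4, 113.6 and 107.9 CPM in *T. ramosissima* C. The member in place 4 had 1463, 1049 and 1537 CPM in *T. chinensis* WD, against 258 and 153 CPM in *T. chinensis* C, and 998, 447 and 535 CPM in *T. ramosissima* WD, against 87.9, 216 and 101 CPM in *T. ramosissima* C. L was 2.76, 2.97 and 2.71 in *T. chinensis* for places 2, 3 and 4, and 1.82, 2.28 and 2.28 in *T. ramosissima*.

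The member in place 5 by the average WD level of the 2 species stood out by its inequality among *T. chinensis* plants. It had 3046, 39.05 and 1583 CPM in *T. chinensis* WD, against 5.15 and 12.2 CPM in *T. chinensis* C, and 277, 130 and 102 CPM in *T. ramosissima* WD, against 1.57, 8.82 and 1.97 CPM in *T. ramosissima* C. Its L of 7.33 was the largest of all members in *T. chinensis*, and it was 5.06 in *T. ramosissima*. By the smaller L it came after the named genes, and a member of low control level followed it. That member had 36.3, 0.92 and 83.9 CPM in *T. chinensis* WD, against 0.54 and 0.51 CPM in *T. chinensis* C, and 85.3, 38.1 and 15.9 CPM in *T. ramosissima* WD, against 0.21, 0.51 and 1.06 CPM in *T. ramosissima* C. Its *T. chinensis* WD 2 value lay barely above the controls while the other 2 WD plants were far above them. The next had 819, 361 and 978 CPM in *T. chinensis* WD, against 8.67 and 10.2 CPM in *T. chinensis* C, and 445, 29.9 and 52.1 CPM in *T. ramosissima* WD, against 11.5, 6.87 and 4.01 CPM in *T. ramosissima* C.

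The members differed in which species had the larger L. The largest excess in *T. chinensis* was in a member with 173, 21.2 and 346 CPM in *T. chinensis* WD, against 1.63 and 0.32 CPM in *T. chinensis* C, and 34.1, 6.24 and 12.9 CPM in *T. ramosissima* WD, against 0.57, 4.49 and 0.53 CPM in *T. ramosissima* C. Its L was 6.52 in *T. chinensis* and 2.71 in *T. ramosissima*, a difference of 3.81. The largest excess in *T. ramosissima* was in a member with 80.6, 56.9 and 59.8 CPM in *T. chinensis* WD, against 3.07 and 19.0 CPM in *T. chinensis* C, and 487, 419 and 885 CPM in *T. ramosissima* WD, against 1.93, 7.12 and 1.29 CPM in *T. ramosissima* C. Its L was 2.47 in *T. chinensis* and 7.07 in *T. ramosissima*, a difference of -4.60. All 3 *T. ramosissima* WD plants were above all 3 *T. chinensis* WD plants in that gene, while the controls of the species overlapped. Both members were singled out for these differences, and neither was called in the interaction test given below.

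The WD plants of a species were not alike in the members, and the same plants were often the lowest or the highest. These orders were read from the WD values that chose the members, which are not independent genes, so they are a description. *T. chinensis* WD 2 was the lowest of its 3 plants in 200 of the 239 members (83.7%), while it was the lowest in 31.1% of expressed genes. Among the 774 other expressed genes with an L of at least 1.5 and separate groups in *T. chinensis*, it was the lowest in 59.4%. *T. ramosissima* WD 1 was the highest of its 3 plants in 201 members (84.1%), against 41.3% of expressed genes and 46.3% of the 203 other genes that met both conditions in *T. ramosissima*. Both orders held together in 175 members (73.2%). With *T. ramosissima* WD 1 left out of the rule, 137 of the 239 members still met it. The high values of this plant thus helped the other members to pass, and part of its order comes with the rule. The first 2 *T. chinensis* WD places were shared almost evenly, with WD 1 highest in 108 members and WD 3 in 110. In *T. ramosissima* the lowest place went to WD 2 in 141 members and to WD 3 in 82.

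**Figure D5:**
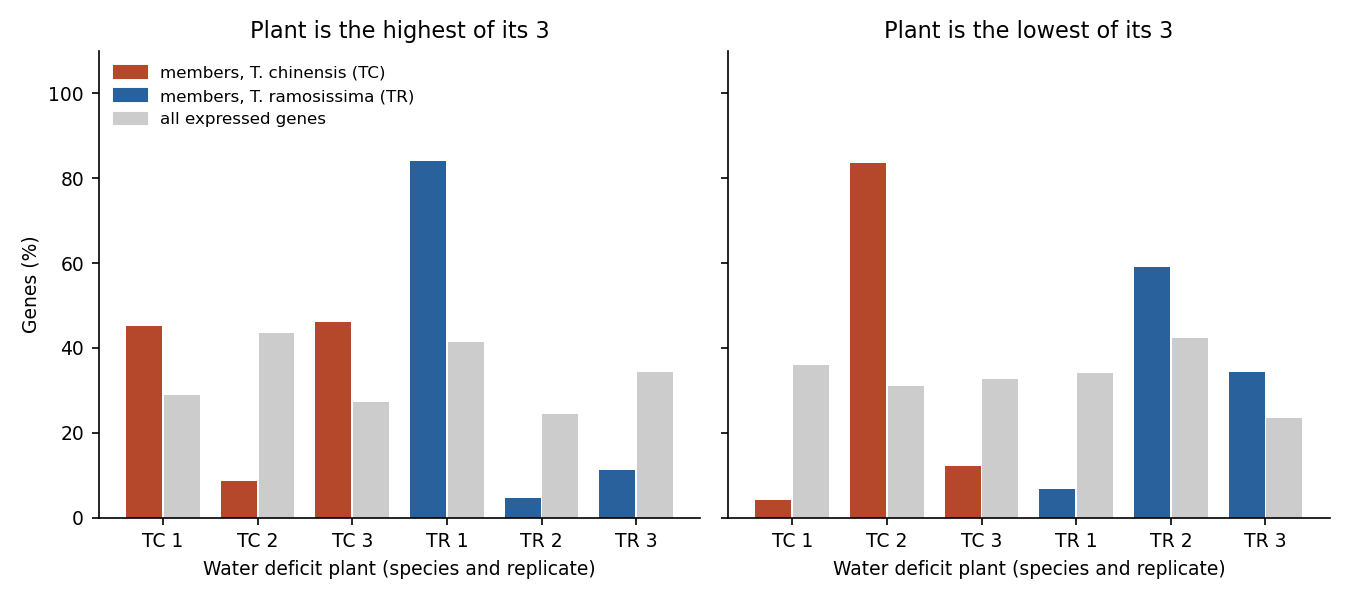
Share of genes (%, vertical axis) in which each WD plant (horizontal axis) was the highest (left panel) or the lowest (right panel) of the 3 WD plants of its species, for the 239 members in colour and for all expressed genes in grey. *T. ramosissima* WD 1 was the highest in 84.1% of members and *T. chinensis* WD 2 the lowest in 83.7%, against 41.3% and 31.1% of expressed genes. The order of the members is read from the values that chose them.

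The distance of these plants from the others of their group was large. *T. chinensis* WD 2 stood at a median of 0.402 times the mean of WD 1 and WD 3 (quartiles 0.232 to 0.643), or -1.27 on the log2 scale, where the median expressed gene was at 0.05. *T. ramosissima* WD 1 stood at a median of 2.07 times the mean of WD 2 and WD 3 (quartiles 1.48 to 3.47), or 1.02 on the log2 scale, where the median expressed gene was at 0.03. In 53 members *T. chinensis* WD 2 was under 0.2 times the mean of the other plants, and in 25 it was at or above that mean. In 130 members *T. ramosissima* WD 1 was at least 2 times the mean of the others, in 7 at least 10 times, and in 31 below it. Each was the deepest WD library of its species. The totals of the *T. chinensis* WD plants were 10245008, 13086118 and 11063900 fragments, with TMM factors of 0.975, 1.03 and 0.961. Those of the *T. ramosissima* WD plants were 12480758, 11221126 and 11921162 fragments, with TMM factors of 1.07, 0.931 and 1.05. The part of depth in the plant order was not tested.

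Relative to the mean of their own controls, the median member had risen by 2.84, 1.69 and 2.79 on the log2(CPM + 1) scale in *T. chinensis* WD 1, 2 and 3, and by 2.59, 1.49 and 1.69 in *T. ramosissima* WD 1, 2 and 3. The rise reached 1.5 in 233, 141 and 222 members in the *T. chinensis* plants and in 231, 117 and 151 members in the *T. ramosissima* plants. Of expressed genes, 4.27%, 2.86% and 4.09% reached it in the *T. chinensis* plants. In the *T. ramosissima* plants 3.95%, 1.34% and 1.87% did so. The least responsive *T. chinensis* plant was thus close to the 2 less responsive *T. ramosissima* plants, and *T. ramosissima* WD 1 was close to the 2 more responsive *T. chinensis* plants. *T. ramosissima* WD 1 was above *T. chinensis* WD 2 in 182 members, below both other *T. chinensis* WD plants in 151 and above all 3 in 42. For these last counts no share over expressed genes was computed, so nothing is read from them. All values here come from the libraries that chose the members and are a description.

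The members were also split by how far *T. chinensis* WD 2 lay below the other plants of its group. The rule keeps this plant above its controls. A low ratio to the other plants therefore goes with a large L in *T. chinensis* by construction. The 53 members with this plant under 0.2 times the others had a median L of 4.47 in *T. chinensis* and 2.55 in *T. ramosissima*, and a median mean control CPM of 2.38. The 97 members with it at 0.5 times or more had a median L of 2.22 in *T. chinensis* and 1.82 in *T. ramosissima*, and a median mean control CPM of 13.2. The ratio of *T. ramosissima* WD 1 to the other plants of its group had a median of 2.89 in the first set and 1.88 in the second. Across all 239 members the log ratios of the 2 plants had a Spearman rho of -0.32 and a Pearson r of -0.34, a weak relation. These sets were formed from the plants' own values, leave out the members in between, and are given without a test. Nothing is read from their L in *T. chinensis*.

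The controls were more even. *T. chinensis* C 1 and C 2 were each the higher in about the same number of members, 118 and 121. *T. ramosissima* C 2 was the highest of its 3 controls in 143 members (59.8%), against 42.9% of expressed genes, and stood at a median of 1.31 times the mean of the others, with at least 2 times in 41 members.

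A WD library can also be read in genes that were chosen without it. The rule was run without each WD library in turn, and the library left out was read in the genes so chosen. This reading was added after the data had been seen, and the controls it is set against also took part in the choice. The genes were thus chosen for low controls, which the expressed genes were not, and most of them were members. The values are therefore a description and support nothing. *T. chinensis* WD 1 lay above both of its controls in 215 of 216 genes (99.5%, against 36.2% of expressed genes), with a median rise of 2.90 on the log2(CPM + 1) scale. *T. chinensis* WD 2 did so in 249 of 284 genes (87.7%, against 39.8%), with a median rise of 1.47. *T. chinensis* WD 3 did so in 231 of 236 genes (97.9%, against 34.9%), with a median rise of 2.81. In *T. ramosissima*, WD 1 lay above all 3 controls in 143 of 146 genes (97.9%, against 33.7%), with a median rise of 2.58. *T. ramosissima* WD 2 did so in 282 of 347 genes (81.3%, against 22.9%), with a median rise of 1.09, and WD 3 in 269 of 286 genes (94.1%, against 31.1%), with a median rise of 1.47. In all 6 cases the left-out plant lay above these controls in most of the genes. The same 3 plants, *T. chinensis* WD 2 and *T. ramosissima* WD 2 and 3, gave the smaller rises.

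The species were then compared within each treatment. The rule set no condition on the difference between species, but it drew on the same WD and C values, so the shares and calls of members that follow are a description and support nothing. Under WD, the mean was higher in *T. chinensis* in 198 members (82.8%, against 46.7% of expressed genes), with a median log2(CPM + 1) difference of 0.79 over members and -0.04 over expressed genes. Every *T. chinensis* WD plant was above every *T. ramosissima* WD plant in 37 members (15.5%, against 12.7% of expressed genes), and the reverse held in 3 (1.26%, against 15.3%). The members were thus mostly higher on average in *T. chinensis* WD, but in all except these 37 and 3 the plants of the species overlapped. In the edgeR quasi-likelihood test of *T. chinensis* WD over *T. ramosissima* WD, 9 of 239 members were called at a false discovery rate (FDR, the adjusted p) of at most 0.05, and 3.99% of all genes tested were called. Of these members 8 were higher in *T. chinensis* (3.35% of members, against 1.78% of all genes tested). The remaining 1 was higher in *T. ramosissima* (0.418%, against 2.21%). With both directions together, 3.77% of members were called, close to the background. By direction, the share of members lay above the background for *T. chinensis* and below it for *T. ramosissima*. Without *T. ramosissima* WD 1 the test called 43 members, and 9.83% of all genes tested. Without *T. chinensis* WD 1, *T. chinensis* WD 3, *T. ramosissima* WD 2 or *T. ramosissima* WD 3 it called 0, and at most 0.00719% of all genes tested. The unadjusted p was under 0.05 in 80 members (33.5%), against 24.9% of genes tested. DESeq2 called 58 members at the same FDR (24.5% of the members it tested, against 14.2% of all genes tested). The median fitted log2 fold change of the members was 0.86, with a median standard error of 0.55.

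The 8 members called higher in *T. chinensis* WD had fitted log2 fold changes of 1.36 to 2.21 with standard errors of 0.24 to 0.40, and adjusted p-values of 0.034 to 0.045 in the edgeR quasi-likelihood test. The clearest of them by standard error had 374, 327 and 370 CPM in *T. chinensis* WD against 182, 106 and 130 CPM in *T. ramosissima* WD, with no overlap. The 1 member called higher in *T. ramosissima* WD was the one with the largest excess of L there, with a log2 fold change of -3.14 ± 0.35 (SE) and an adjusted p of 0.024. Neither named member was called, and in both the WD plants of the species overlapped. For TRINITY_DN34563_c1_g1 the fitted log2 difference of *T. chinensis* WD over *T. ramosissima* WD was 1.57 with an adjusted p of 0.473 in edgeR.

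In control leaves, the mean was higher in *T. chinensis* in 169 members (70.7%, against 52.7% of expressed genes), with a median log2(CPM + 1) difference of 0.21 over members and 0.02 over expressed genes. Both *T. chinensis* C plants were above every *T. ramosissima* C plant in 57 members (23.8%, against 14.1% of expressed genes), and the reverse held in 11 (4.60%, against 8.61%). The edgeR quasi-likelihood test of *T. chinensis* C over *T. ramosissima* C tested 228 members and called 0 at an FDR of at most 0.05, with 0.00709% of all genes tested called. The smallest adjusted p of a member was 0.355. The unadjusted p was under 0.05 in 28 members (12.3%, against 7.73% of genes tested), and DESeq2 called 5 at the same FDR (1.3% of all genes tested). A difference between species in the control level of a member was therefore not detectable in the main test with 2 and 3 plants.

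The interaction of species and treatment compares the sizes of the responses. Both responses of a member had a floor set by the rule, so its values are a description. The edgeR quasi-likelihood test over all 11 libraries called 0 of 239 members at an FDR of at most 0.05, with 0.0639% of all genes tested called. The smallest adjusted p was 0.098, in the member with the largest excess of L in *T. ramosissima*, whose interaction was -4.87 ± 1.0 (SE, log2). The unadjusted p was under 0.05 in 26 members (10.9%, against 11.6% of genes tested), and DESeq2 called 5 (3.33% of all genes tested). The fitted interaction was positive, meaning a larger response in *T. chinensis*, in 194 members. Its median was 0.50 over members and 0.03 over all genes tested, and the median standard error of a member was 0.79. For TRINITY_DN34563_c1_g1 it was 1.15 ± 1.64 (SE) with an adjusted p of 0.865, and for TRINITY_DN33002_c3_g2 1.02 ± 1.67 (SE) with an adjusted p of 0.888.

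The WD contrast itself chose the members, and nothing is read from its calls. In *T. chinensis*, the edgeR quasi-likelihood test called 5 of the 239 members higher in WD at an FDR of at most 0.005 and a log2 fold change of at least 1, and 0.0567% of all genes tested were so called. At an FDR of at most 0.05 it called 181 (6.1%). Without *T. chinensis* WD 2, 123 members were called at the stricter threshold, and 3.14% of all genes tested were called in either direction. Without *T. chinensis* WD 1 or WD 3, 0 members and 0% of all genes tested were called. In *T. ramosissima* it called 0 members and 0% of genes tested at an FDR of at most 0.005, and 142 members (1.54%) at an FDR of at most 0.05. DESeq2 at an FDR of at most 0.005 called 223 members in *T. chinensis* (6.09%) and 195 of the 235 it tested for *T. ramosissima* (2.16%), and edgeR's exact test called 201 (5.53%) and 176 (1.84%).

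Features that the rule did not use were also described. The ratio of count to TPM of a gene is proportional to its effective length, and it was taken relative to the median expressed gene of the library. In the 208 members with enough counts, this relative length had a median of 0.914 (quartiles 0.558 to 1.41), within the range of expressed genes (quartiles 0.569 to 1.56). The members were thus neither unusually long nor unusually short assembled transcripts. A change in this ratio between WD and C can arise when other contigs of a gene carry its fragments. Its median log2 shift, WD over C, was 0.00 in both species. In *T. chinensis*, 1 of 221 members had separate groups with a length greater by at least 0.5 on the log2 scale in WD (0.901% of genes so measured) and 1 with a shorter one (0.857%). In *T. ramosissima* 3 of 210 members were longer (0.502%) and 3 shorter (0.493%), and no member was in these sets in both species.

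Genes of a shared Trinity component, a cluster of contigs that overlap in sequence, can be copies, variants or fragments of 1 gene, among which the counting program RSEM divides the fragments. A component with another expressed gene was found for 99 members (41.4%), against 48.2% of expressed genes. With genes grouped by the DN number of the identifier alone, it was found for 162 members (67.8%, against 66.8%). The 239 members lay in 231 components, and only 7 of these held 2 or more members, with at most 3. The 117 expressed genes that shared a component with a member without being members had a median L of 0.46 in *T. chinensis* and 0.34 in *T. ramosissima*. L was at least 1 in both species in 26 of them (22.2%, against 2.80% of expressed genes) and above 0 in both in 68 (58.1%, against 31.9%). It was at most -1 in both in 8, for which no share of expressed genes was computed. By DN number alone, 10.3% of the 273 such genes had an L of at least 1 in both, and 44.3% had one above 0 in both. Genes of these components that met the rule are members and are not among the 117, so their L was limited by this choice, and 15 members shared a component with another member. Counts that differed from a whole number by more than 1e-09, a sign of fragments divided among contigs, occurred in 63 members (26.4%) and in 23.4% of expressed genes. TRINITY_DN34563_c1_g1 and TRINITY_DN33002_c3_g2 had 2 and 4 other genes in their components, 0 of them expressed.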

How the data were processed

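Leaf RNA of 11 seedlings was sequenced by the authors as Illumina paired ends. The authors filtered the reads, assembled those of both species with Trinity and estimated abundance with RSEM (version not given in the sources used here). Their deposited estimated counts (fragments per assembled gene) are not normalized. The deposited TPM values were computed by the authors with RSEM and scaled within each library. The assembly holds no gene names, and 0 columns belonged to samples outside the series. A total of 1181 genes had a count of 0 in every library.

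CPM used the column sum of the estimated counts. For tests, counts were rounded and analysed with edgeR 4.0.16 in R 4.3.3 (TMM, quasi-likelihood test, Benjamini-Hochberg adjustment over all genes tested), keeping genes that exceeded 1 CPM in 2 or more libraries of the comparison. Each species comparison used only its own groups, and the interaction used all libraries. Standard errors came from dividing each log2 fold change by the root of its F statistic. Other steps used Python 3.11.15, pandas 2.3.3, numpy 2.4.6 and matplotlib 3.10.9. A fold between groups used the ratio of mean CPM without an added value. The effective length was read from genes with a count of at least 10 in the libraries used.

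The other settings tried were DESeq2 1.42.0, edgeR's exact test, median-ratio size factors, no scaling beyond library size, other filters, thresholds, added values and units, a single fit to the 4 groups, a block for the replicate number, and dropping each library singly. A *T. chinensis* control that remained alone was assumed to vary like the other groups.

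The members, lists and tests were chosen with earlier results of these data known. The rule for named genes gave the member with the highest smaller mean WD CPM of the 2 species and that with the highest smaller L (the next one where it was the same gene). Other members were described by rank. These were the 5 highest by the average of the mean WD CPM of the 2 species and the 5 highest by the smaller L. The highest control level and the largest difference of L each way were added. By the study's methods, each library came from a separate plant.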

Additional observations from a re-analysis of the deposited data

How the results depend on the processing

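The number of genes that met the rule was 239. It was 134 with an added value of 5 in L, 575 with L of at least 1 and 115 with L of at least 2. Leaving out 1 library gave 146 to 347 genes. Without *T. ramosissima* WD 1 it was 146, of which 137 were among the 239. Leaving out *T. chinensis* WD 2 and *T. ramosissima* WD 1 together, chosen after seeing the data, gave 178, of which 135 were among the 239. With TMM-scaled levels 221 of 234 genes were members, and with TPM 197 of 254. Leaving out 1 library gave a median L of 2.46 to 2.77 in *T. chinensis* and 1.59 to 2.25 in *T. ramosissima*, and a fold of the summed CPM of 7.38 to 10.8 and 4.05 to 6.46.

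Calls of members depended on the test, and so did calls over all genes. A percentage in brackets is the share of all genes tested that was called, in either direction. In WD versus C of *T. chinensis* (5 in the main test, 0.347%), the exact test called 201 (14.4%) and DESeq2 223 (14.0%). Without a filter on low counts 239 were called (5.68%), in the fit of all 4 groups 40 (2.19%) and at an FDR of 0.05 181 (15.6%). In *T. ramosissima* (0, 0%), the exact test called 176 (4.66%), DESeq2 195 (5.28%) and the fit without a filter 239 (2.26%). At an FDR of 0.05, 142 were called there (3.84%). For the interaction (0, 0.0639%), DESeq2 called 5 (3.33%) and the fit without a filter 39 (1.54%). The exact test, which compares 2 groups, could not be run for it. Between species in WD (9, 3.99%), the exact test called 48 (13.0%), DESeq2 58 (14.2%) and the fit without a filter 118 (5.45%). At an FDR of 0.005 with a log2 fold change of at least 1, 0 were called (0%). In C (0, 0.00709%), the exact test, DESeq2 and the fit without a filter called 5 (1.28%), 5 (1.30%) and 19 (1.47%). In *T. chinensis* WD versus C, 123 members were called without WD 2 (3.14%) and 0 without WD 1 or WD 3 (0%). In *T. ramosissima*, leaving out 1 library gave 0 (0%). For the interaction, leaving out 1 library other than a *T. chinensis* control gave 0 to 8. These were 5 without *T. chinensis* WD 2 (0.113%) and 8 without *T. ramosissima* WD 1 (2.75%). Leaving out 1 *T. ramosissima* control gave 0 between species in C (at most 0.0322%). Between species in WD, 43 were called without *T. ramosissima* WD 1 (9.83%) and 13 without *T. chinensis* WD 2 (1.08%). There, 0 were called without *T. chinensis* WD 1, *T. chinensis* WD 3, *T. ramosissima* WD 2 or *T. ramosissima* WD 3 (at most 0.00719%). The causes were not tested. The replicate numbers were not taken to pair the plants. Over expressed genes, same-numbered WD and C plants deviated from their group means with correlations of 0.05 and 0.11 for *T. chinensis*, and -0.16, -0.21 and 0.09 for *T. ramosissima*. Over the members these were -0.21 and -0.19, and -0.06, -0.02 and 0.05. Same-numbered plants of the 2 species had correlations over expressed genes of 0.10, 0.06 and -0.10 in WD, and -0.06 and 0.01 in C. Over the members these were 0.14, 0.14 and -0.38 in WD, and 0.07 and 0.22 in C. With the replicate block, 0 members were called in each of the 5 comparisons, while calls over all genes between species in C numbered 116 with the block and 2 without it.

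Of 200 alternative values, 162 stayed within the spread or within 1.5 times the count, and 38 moved further. A reversal could not be scored for counts, folds or lengths, and L had been chosen to be high. The spread used as the limit could also be wide, with an SD of 3.59 (log2) for TRINITY_DN34563_c1_g1 in *T. chinensis* WD. The tally is therefore a description and no measure of robustness. With 1 plant per library and 2 or 3 per group, p-values rest on few plants. Levels near 1 CPM, such as the controls of TRINITY_DN33002_c3_g2, rest on few fragments and carry a large counting error, and the L of that gene in *T. ramosissima* was 3.84 with an added value of 5.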

Other observations

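A further 104 expressed genes had an L of at least 1.5 in both species but overlapping WD and C libraries in at least 1. The overlap was in *T. chinensis* alone in 32 of them, in *T. ramosissima* alone in 65 and in both in 7. Of the 39 genes that overlapped in *T. chinensis*, WD 2 was at or below the highest control in 32, WD 3 in 5 and WD 1 in 2. Of the 72 genes that overlapped in *T. ramosissima*, WD 2 was at or below the highest control in 57, WD 3 in 25 and WD 1 in 3. On the control side, *T. chinensis* C 1 and C 2 were at or above the lowest WD plant in 30 and 34 of the 39. *T. ramosissima* C 1, C 2 and C 3 were so in 27, 48 and 29 of the 72. By definition each overlap has a WD plant at or below the highest control and a control at or above the lowest WD plant. Only which plants took part could differ. The WD plants in these overlaps were mostly those that also stood lowest among the members.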
